A study of Mus musculus with 8 samples.

Results

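The genes described here are 50 mouse genes of DNA replication and nucleotide supply, taken as a fixed list of gene symbols, and all 50 were found among the 23420 symbols that the count files list. They were followed over 4 groups of wild-type thymocytes, T cells still developing in the thymus, with 2 RNA sequencing libraries in each group and 8 in all. The groups were sorted DP thymocytes and whole thymocytes of a strain labelled B6, and the same populations of a strain labelled BALB; the labels name neither the substrain nor the age, and no group was treated. DP (double-positive) cells express CD4 together with CD8. The sorting gate kept those negative for CD69, a marker of activation, whose surface TCR beta, stained with the antibody H57, was low or intermediate. Unsorted thymocytes contain all developmental stages and some cells that are not thymocytes. Separate animals are not stated for the 2 libraries of a group. The BALB whole libraries differ in sex-linked transcripts, as given below, and so were not repeats from 1 animal; in the other 3 groups the spread behind the p-values may be technical.

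DNA replication starts when the origin recognition complex, with the loading factors CDC6 and CDT1, places MCM helicase rings on DNA in G1, a step called licensing. In S phase the rings are activated by CDC45 and the GINS complex, primase and polymerase alpha start new strands, and polymerases delta and epsilon extend them on the sliding clamp PCNA. E2F transcription factors switch on most of these genes when cells leave G1. In the thymus, proliferation is greatest in the late DN and early DP blasts that have passed beta selection, while most DP thymocytes are small resting cells that rearrange the T cell receptor alpha genes.

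Of the 50 genes, 27 were higher in BALB DP than in B6 DP thymocytes by the test described below, against 6.85% of all genes. None was lower, against 6.14%. In whole thymocytes none was called between the strains, against 4.59% of all genes. The direct test of whether the strain difference depended on the population called none of the 50 (lowest edgeR adjusted p = 0.13). Levels are in CPM, which are counts scaled to the same library total. The summed level of the 50 genes was 5125 and 4987 in the B6 DP libraries and 7279 and 6684 in the BALB DP libraries. It was 5403 and 5578 in the B6 whole and 5351 and 5316 in the BALB whole libraries. Both BALB DP libraries were above the other 6, and those 6 lay within a narrow range. For single genes, both BALB DP libraries were above all 6 others for 27 of the 50, against 10.5% of the 11409 genes tested. BALB DP had the highest group mean for 39 of the 50, a share that was not computed over all genes.

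**Figure D1:**
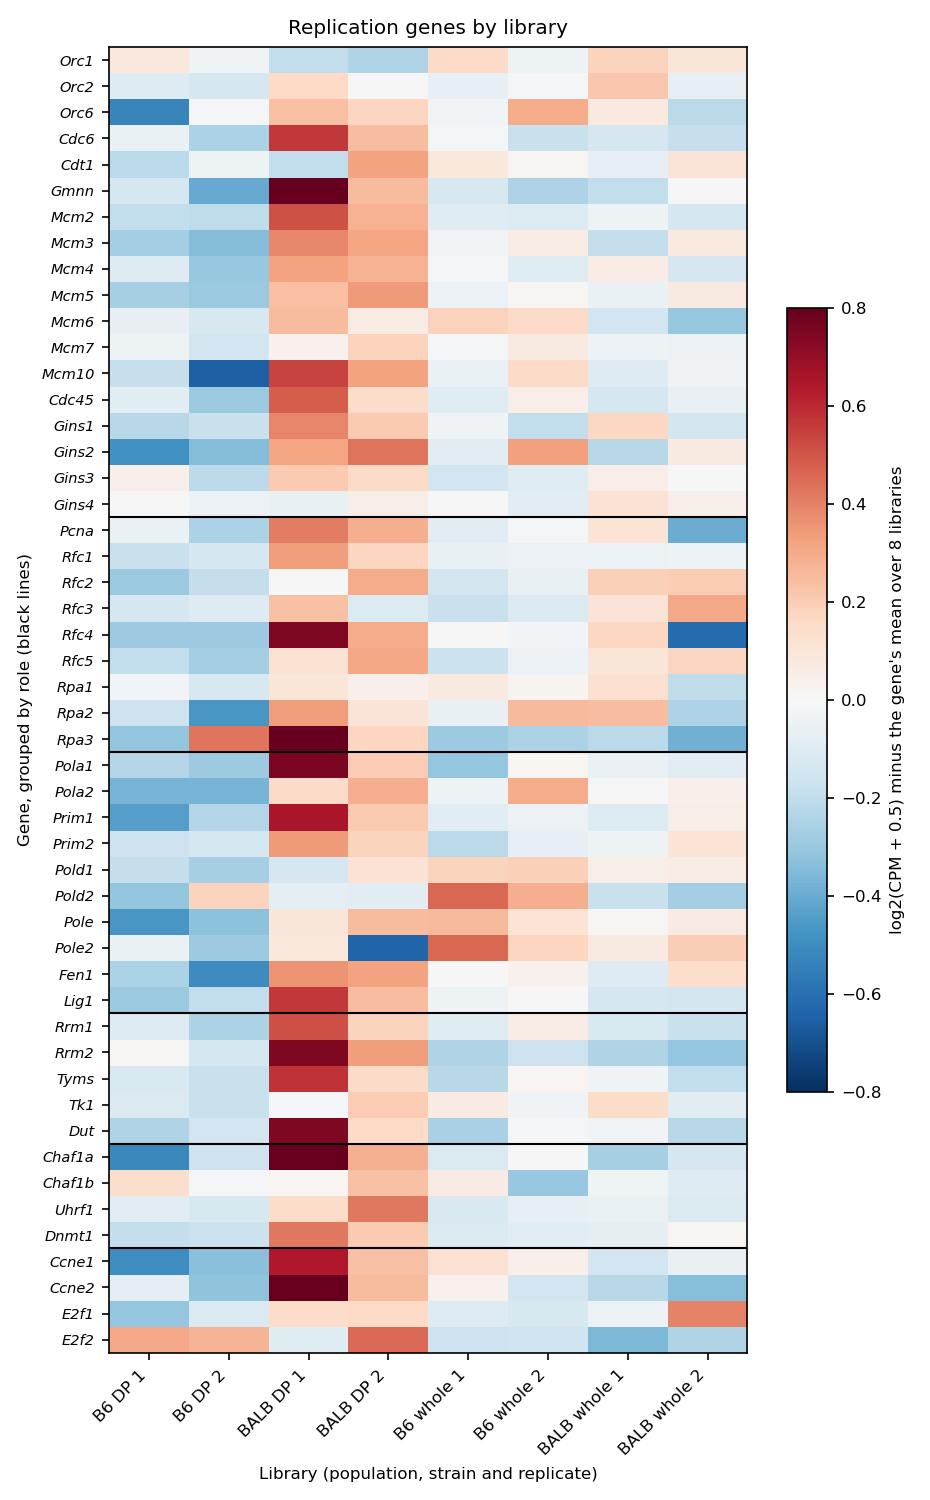
Level of each of the 50 genes (rows, grouped by role between black lines) in each of the 8 libraries (columns), as log2(CPM + 0.5) minus the mean of the gene over the libraries. The 2 BALB DP columns are mostly red, with both above all 6 other libraries for 27 genes, and Orc1, Gins4 and E2f2 are among the exceptions.

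All 50 genes passed the filter on low counts, with 20 counts or more in every library. The libraries held 2632083 to 5974684 counts in genes, and the 2 extremes were the BALB DP libraries, with replicate 1 the deeper. Replicates differed by more than counting error, with a chi-square per degree of freedom of 1.62 in B6 whole to 18.2 in BALB DP thymocytes. BALB DP replicate 1 had 3.14% of all counts in Rn45s, a precursor of ribosomal RNA, against 5.11% to 8.35% elsewhere. The 72 histone genes held 2.34% and 1.82% of the counts in BALB DP and 1.05% to 1.29% in the other libraries. BALB whole replicate 1 had 12313 counts of Xist and 0 of the Y-linked Ddx3y, and replicate 2 had 203 and 725. Because RNA was taken from many cells at once, fewer cells in S phase and less of a transcript in each cell cannot be told apart.

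Of the 50 genes, 41 have a promoter window in RefSeq (GRCm38.p6), which runs from 250 bases before to 50 after the annotated gene start. The windows were searched on both strands for the E2F consensus, spelled as TTTCCCGC, TTTCGCGC, TTTGCCGC and TTTGGCGC. A match was found for 16 of the 41 genes, or 39.0%, against 2.61% of the 27025 genes that have such a window. The sequence CCAAT was found for 26 of the 41, or 63.4%, against 41.1% of all. The windows below are shown because they hold matches in genes of licensing and strand joining and in E2f2 itself. They are written 5′ to 3′ on the strand of the gene, with the match in capitals, and in Mcm5 and Mcm6 TTTCGCGC on one strand overlaps TTTGGCGC on the other.
Mcm5, chr8:75109348-75109375, plus strand: ccaagaacTTTCGCGCCAAAacgtccag
Mcm6, chr1:128359796-128359823, minus strand: cgtatgctTTTGGCGCGAAAagtgcgtg
Mcm3, chr1:20820276-20820303, minus strand: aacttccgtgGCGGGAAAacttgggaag
Cdc6, chr11:98908003-98908030, plus strand: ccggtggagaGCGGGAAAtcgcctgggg
Lig1, chr7:13278842-13278869, plus strand: gccaaagtgcGCGCGAAAtctgtgtggc
E2f2, chr4:136172303-136172323, plus strand: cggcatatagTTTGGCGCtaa

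The 250 bases before the start of Mcm5 and of Rrm2 are printed whole because both genes were called in the DP strain comparison below, and only the first holds a match. In Mcm5 the matched stretch begins 153 bases before the gene start. The absence of a match in Rrm2 says only that these letters are not in this window.
Mcm5, chr8:75109259-75109508, plus strand: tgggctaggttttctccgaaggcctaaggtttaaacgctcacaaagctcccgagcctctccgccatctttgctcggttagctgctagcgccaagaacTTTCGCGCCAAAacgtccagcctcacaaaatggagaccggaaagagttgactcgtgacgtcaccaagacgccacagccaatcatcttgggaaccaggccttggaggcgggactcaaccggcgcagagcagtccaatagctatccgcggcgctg
Rrm2, chr12:24708004-24708253, plus strand: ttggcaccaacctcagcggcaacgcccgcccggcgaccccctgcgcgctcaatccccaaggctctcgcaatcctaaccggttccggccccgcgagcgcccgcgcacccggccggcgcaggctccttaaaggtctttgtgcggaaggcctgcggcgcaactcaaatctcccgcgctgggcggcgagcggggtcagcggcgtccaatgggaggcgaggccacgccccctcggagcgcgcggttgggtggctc

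Levels can be set against each other between genes only per length, here as the mean CPM over 8 libraries divided by kilobases of annotated exon. Dnmt1, the maintenance DNA methyltransferase, was highest at 110 CPM per kilobase. It was followed by the helicase subunit Mcm3 at 77.2, the transcription factor E2f2 at 75.3, the ribonucleotide reductase subunit Rrm2 at 73.5 and Uhrf1, which recruits DNMT1 to hemimethylated DNA, at 71.7. At the other end were thymidine kinase Tk1 at 3.94, the GINS subunit Gins2 at 4.01 and the polymerase epsilon subunit Pole2 at 4.39. The order below Dnmt1 differed between groups. In BALB DP it was Rrm2 at 105, Mcm3 at 96.9, Uhrf1 at 87.2 and E2f2 at 84.9, and in B6 DP it was E2f2 at 90.1, Rrm2 at 68.2, Uhrf1 at 65.9 and Mcm3 at 61.3 CPM per kilobase. Over all libraries the 6 subunits of the MCM ring, which are needed in equal number, ranged from 33.3 for Mcm2 to 77.2 for Mcm3 per kilobase. E2f2 at 75.3 was far above its family member E2f1 at 7.98, and the order of these 2 was the same in all 4 groups.

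The comparison of BALB with B6 in DP thymocytes asks which replication transcripts differ between the strains at this stage. Of the 50 genes, 27 were higher in BALB at an adjusted p under 0.05 (quasi-likelihood F test of edgeR, Benjamini-Hochberg over all 11409 genes). The share called higher among all genes was 6.85%, and none of the 50 was lower, against 6.14% of all genes. Their median log2 fold change was 0.51, against 0.00 for all genes tested. The 2 libraries of each strain did not overlap for 42 genes, with BALB above for 41 and below for Orc1, against 26.1% of all genes in each direction.

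**Figure D2:**
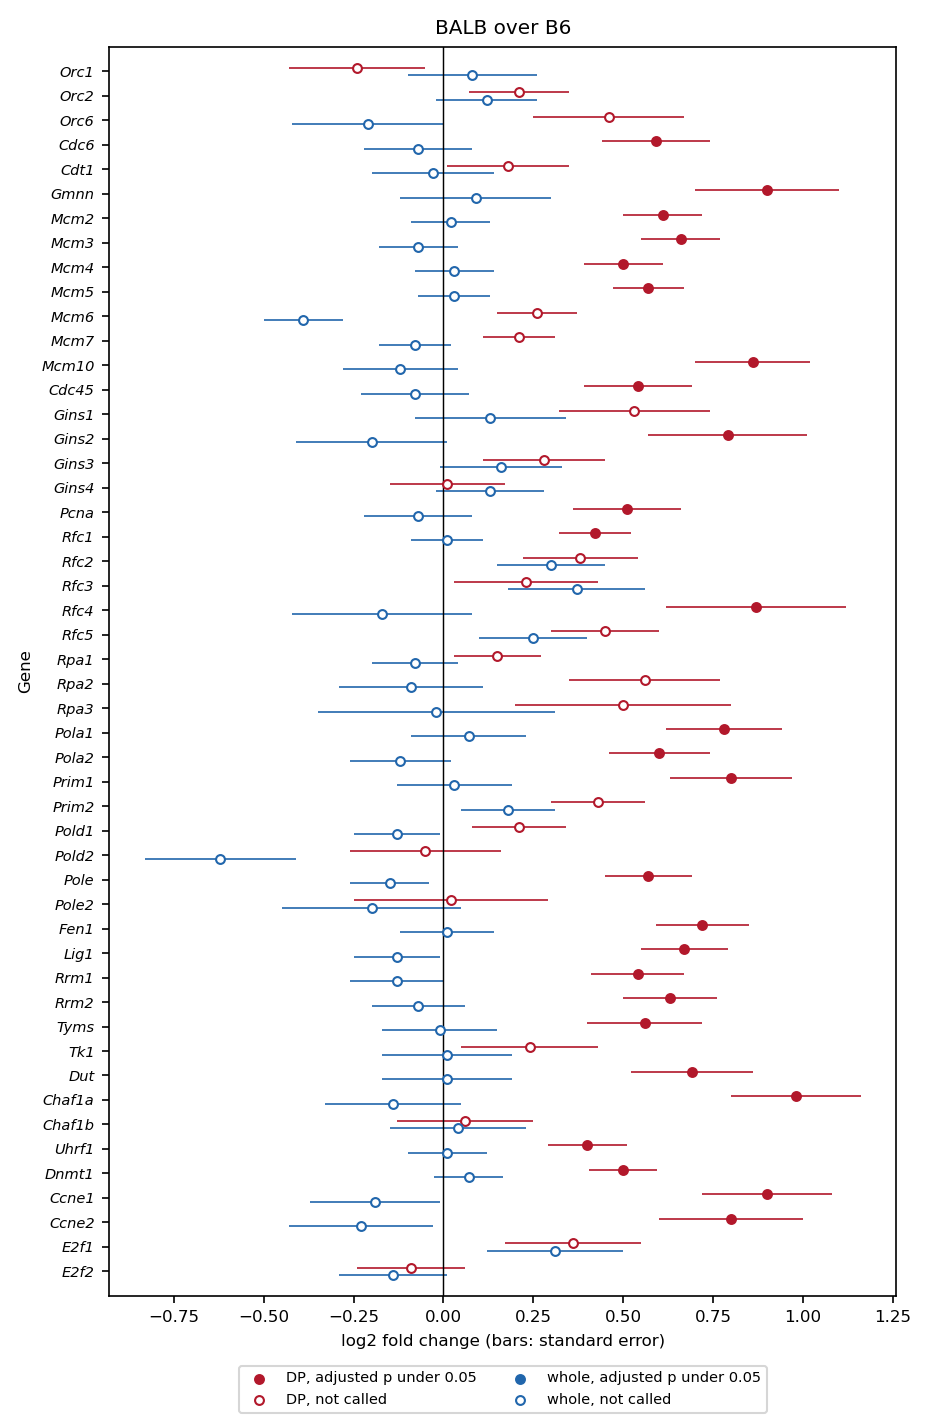
log2 fold change of BALB over B6 for each of the 50 genes in DP (red) and whole thymocytes (blue), with standard errors and with filled points for an adjusted p under 0.05. In DP thymocytes 27 points are filled, all to the right of 0, and in whole thymocytes none is.

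Among the licensing and helicase genes, 9 of 18 rose and none fell in BALB DP thymocytes. Mcm3 (chromosome 1, 20802968 to 20820312, GRCm38), an MCM ring subunit, was at 236 and 224 CPM in B6 DP, 372 and 355 in BALB DP, 281 and 298 in B6 whole and 250 and 301 in BALB whole libraries. The BALB DP libraries were the highest of the 8, and their log2 fold change over B6 DP was 0.66 ± 0.11 (SE; edgeR adjusted p = 0.00248), the smallest adjusted p among the 50 genes. Mcm5 was at 122 and 119 CPM in B6 DP, 173 and 186 in BALB DP, 142 and 148 in B6 whole and 141 and 154 in BALB whole libraries. Its rise was 0.57 ± 0.10, with both BALB DP libraries again on top. Mcm2 rose by 0.61 ± 0.11 and Mcm4 by 0.50 ± 0.11. Of the other ring subunits, Mcm6 was at 0.26 ± 0.11 and Mcm7 at 0.21 ± 0.10, and neither was called.

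None of the 3 origin recognition subunits on the list was called. Orc1 was at 20 and 18.5 CPM in B6 DP and 16.4 and 15.9 in BALB DP libraries, a log2 fold change of −0.24 ± 0.19 that did not pass. Orc2 at 0.21 ± 0.14 and Orc6 at 0.46 ± 0.21 did not pass either. Cdc6, which loads the rings with ORC, was at 57.9 and 50.2 CPM in B6 DP, 89.0 and 71.3 in BALB DP, 59.6 and 53.1 in B6 whole and 54.7 and 52.8 in BALB whole libraries, and rose by 0.59 ± 0.15 (edgeR adjusted p = 0.0231). Its partner Cdt1 was at 51.7 and 58.4 CPM in B6 DP and 52.4 and 75.1 in BALB DP libraries, which overlap, and was not called (0.18 ± 0.17). Gmnn encodes geminin, the inhibitor of CDT1 in S and G2. It was at 35.7 and 29.6 CPM in B6 DP, 72.0 and 46.9 in BALB DP, 35.9 and 33.1 in B6 whole and 34.2 and 39.4 in BALB whole libraries. Its rise of 0.90 ± 0.20 (edgeR adjusted p = 0.0133) rested on BALB DP libraries that differed by 1.54 times.

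Of the 6 listed genes that turn the loaded ring into a moving helicase, 3 were called. Mcm10, an activation factor, was at 64.5 and 46.5 CPM in B6 DP, 107 and 91.8 in BALB DP, 70.8 and 81.8 in B6 whole and 68.2 and 72.0 in BALB whole libraries, and rose by 0.86 ± 0.16 (edgeR adjusted p = 0.00524). Cdc45 rose by 0.54 ± 0.15. Among the 4 GINS subunits, Gins2 rose by 0.79 ± 0.22, while Gins1 at 0.53 ± 0.21, Gins3 at 0.28 ± 0.17 and Gins4 at 0.01 ± 0.16 did not pass. Genes of this role thus ranged from −0.24 for Orc1 to 0.90 for Gmnn.

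Of the clamp, clamp loader and single-strand binding genes, 3 of 9 rose. Pcna (chromosome 2, 132249162 to 132253314), the sliding clamp, was at 132 and 115 CPM in B6 DP, 182 and 168 in BALB DP, 129 and 136 in B6 whole and 148 and 104 in BALB whole libraries. Its log2 fold change of 0.51 ± 0.15 had an adjusted p of 0.0499 in edgeR, at the edge of the threshold. Of the loader subunits, Rfc1 rose by 0.42 ± 0.10 and Rfc4 by 0.87 ± 0.25, and Rfc2, Rfc3 and Rfc5 lay between 0.23 and 0.45 without a call. Rfc4 was at 18.2 and 18.2 CPM in B6 DP, 37.8 and 27.5 in BALB DP, 22.4 and 22.0 in B6 whole and 25.1 and 14.4 in BALB whole libraries, so the BALB libraries varied more than the B6 libraries. The subunits of replication protein A, Rpa1, Rpa2 and Rpa3, were at 0.15 to 0.56 and did not pass.

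Among the polymerases, primase and strand completion genes 6 of 10 rose. Lig1 (chromosome 7, 13277283 to 13311433), the ligase that seals Okazaki fragments, was at 177 and 190 CPM in B6 DP, 323 and 258 in BALB DP, 212 and 218 in B6 whole and 198 and 197 in BALB whole libraries. Its rise was 0.67 ± 0.12 (edgeR adjusted p = 0.00361). Fen1, the flap nuclease of the same step, rose by 0.72 ± 0.13. Both subunits of polymerase alpha rose, Pola1 by 0.78 ± 0.16 and Pola2 by 0.60 ± 0.14, as did the primase subunit Prim1 by 0.80 ± 0.17. Prim2 was at 0.43 ± 0.13 (edgeR adjusted p = 0.0552).

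Of the leading and lagging strand polymerases only Pole was called. Pole, the catalytic subunit of polymerase epsilon, was at 85.8 and 94.2 CPM in B6 DP, 127 and 141 in BALB DP, 142 and 128 in B6 whole and 119 and 124 in BALB whole libraries. It rose by 0.57 ± 0.12 (edgeR adjusted p = 0.00824), and the B6 DP libraries were the lowest of the 8 rather than the BALB DP libraries the highest. Its accessory subunit Pole2, at 7.75 to 17.2 CPM over the 8 libraries, was at 0.02 ± 0.27. The polymerase delta genes Pold1 and Pold2 were at 0.21 ± 0.13 and −0.05 ± 0.21 and were not called.

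Nucleotide supply genes gave 4 of 5 that rose. Rrm2 (chromosome 12, 24708241 to 24714146), the S-phase subunit of ribonucleotide reductase, was at 199 and 179 CPM in B6 DP, 332 and 249 in BALB DP, 167 and 176 in B6 whole and 167 and 159 in BALB whole libraries. It rose by 0.63 ± 0.13 (edgeR adjusted p = 0.00973). The partner subunit Rrm1 rose by 0.54 ± 0.13, thymidylate synthase Tyms by 0.56 ± 0.16 and the dUTPase Dut by 0.69 ± 0.17. Tyms was at 53.9 and 52.0 CPM in B6 DP, 88.1 and 65.5 in BALB DP, 50.4 and 59.4 in B6 whole and 57.6 and 51.3 in BALB whole libraries. Thymidine kinase Tk1, at 18.8 and 18 CPM in B6 DP and 20.3 and 23.6 in BALB DP libraries, was not called (0.24 ± 0.19).

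Chromatin assembly and methylation maintenance genes gave 3 of 4. Chaf1a (chromosome 17, 56040439 to 56072289), the large subunit of the histone chaperone CAF-1, had the largest fold change of the 50 genes in this comparison, 0.98 ± 0.18 (edgeR adjusted p = 0.00533). It was at 75.5 and 96.4 CPM in B6 DP, 204 and 132 in BALB DP, 100 and 108 in B6 whole and 90.1 and 98.4 in BALB whole libraries. The BALB DP libraries differed by 1.54 times but were both above the other 6. Chaf1b, the middle subunit, was at 27.9 and 24.9 CPM in B6 DP and 25.5 and 29.8 in BALB DP libraries and was not called (0.06 ± 0.19). Dnmt1 (chromosome 9, 20907209 to 20959888) was at 707 and 714 CPM in B6 DP, 1078 and 933 in BALB DP, 743 and 757 in B6 whole and 765 and 814 in BALB whole libraries, and rose by 0.50 ± 0.095 (edgeR adjusted p = 0.00533). Uhrf1 rose by 0.40 ± 0.11.

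Among the 4 G1/S regulators both E cyclins rose and neither E2F factor was called. Ccne1 (chromosome 7, 38097984 to 38107534), a cyclin E that activates CDK2, was at 21.9 and 24.6 CPM in B6 DP, 48.8 and 36.8 in BALB DP, 33.9 and 32.1 in B6 whole and 28 and 29.9 in BALB whole libraries, and rose by 0.90 ± 0.18 (edgeR adjusted p = 0.00699). Ccne2, the other cyclin E, was at 32.9 and 27.6 CPM in B6 DP, 61.4 and 41.4 in BALB DP, 35.4 and 31.1 in B6 whole and 29.6 and 27.2 in BALB whole libraries, and rose by 0.80 ± 0.20. E2f1 was at 20 and 23.0 CPM in B6 DP and 27.6 and 27.9 in BALB DP libraries, without a call (0.36 ± 0.19). E2f2 (chromosome 4, 136172394 to 136196057) was at 445 and 435 CPM in B6 DP, 337 and 493 in BALB DP, 322 and 323 in B6 whole and 281 and 305 in BALB whole libraries. The BALB DP libraries lay on either side of the B6 DP libraries, and E2f2 was at −0.09 ± 0.15.

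**Figure D3:**
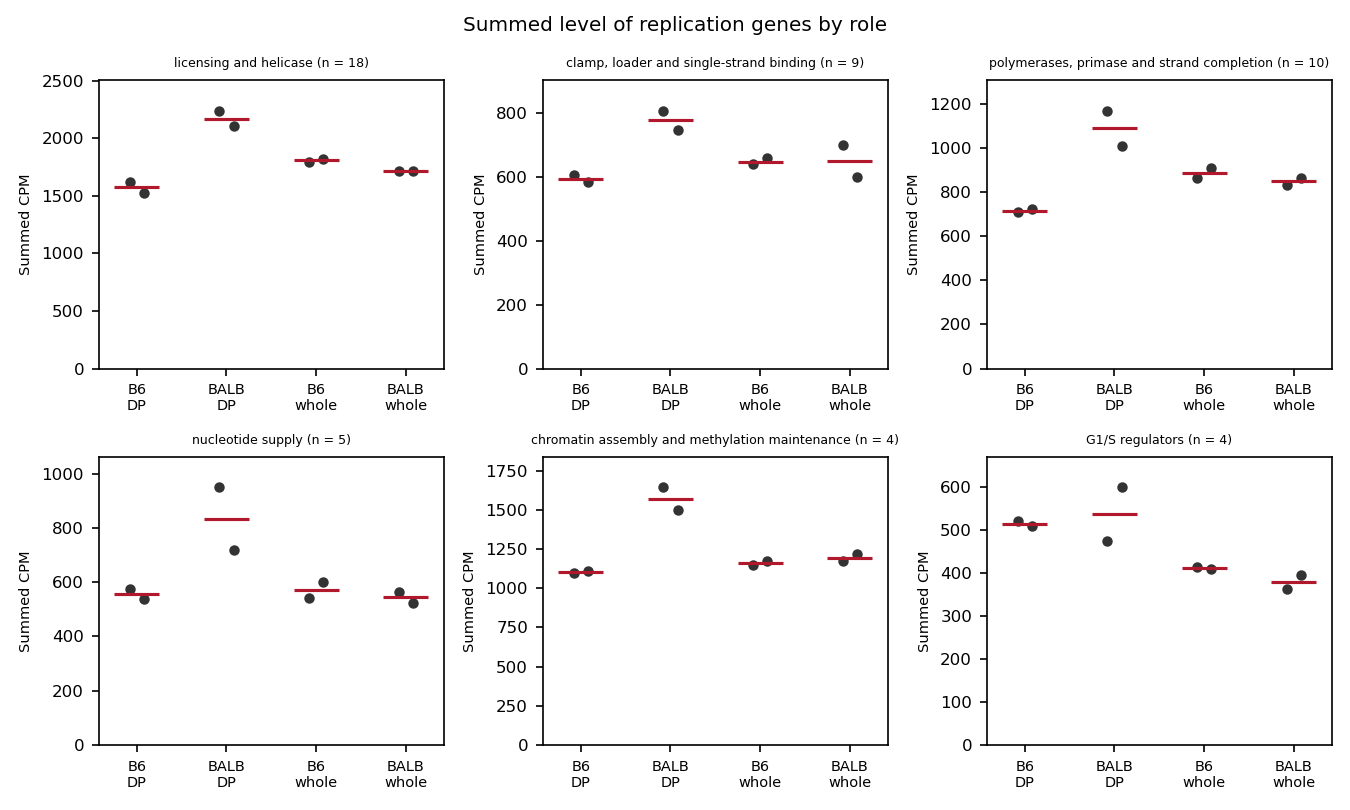
Summed CPM of the genes of each role in every library (points) with the group mean (red line), and axes starting at 0. BALB DP is above the other groups in 5 roles, while the G1/S regulators, dominated by E2f2, were at 474 and 599 in BALB DP and 520 and 510 in B6 DP.

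The 2 BALB DP libraries were not equal. Replicate 1 was above replicate 2 for 35 of the 50 genes, and the ratio of replicate 1 to replicate 2 ran from 0.683 for E2f2 to 1.69 for Pole2. Without BALB DP replicate 1, the deeper library, 17 of the 50 genes were called and the median of the 50 was 0.40. Without BALB DP replicate 2, 30 were called higher and 1 lower, and the share of all genes called in either direction rose from 13.0% to 29.3%; without replicate 1 it was 8.47%. Leaving out a B6 DP library left 8 calls without replicate 1 and 6 without replicate 2, and a fit to only the 4 DP libraries gave 6, all higher in BALB. The share of all genes called was 5.53%, 4.28% and 5.38% in these fits. Calls lost in more than 9 of 19 alternatives were those of Cdc45 and Tyms in 12 and Pcna in 11.

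Markers of other cells were compared between the DP groups. The 6 markers of DN and early cycling thymocytes summed to 104 and 116 CPM in B6 DP and to 103 and 129 in BALB DP libraries, with 2 of 6 higher on average in BALB. Notch3, at 63.3 to 87.5 CPM in the DP libraries, made up most of these sums, which hide opposite changes. Of the 5 tested, edgeR called Il2ra lower in BALB DP (−2.54 ± 0.36) and Cd44 higher (1.76 ± 0.21). The shares among all genes were 6.14% lower and 6.85% higher. The 6 mature thymocyte markers summed to 67.9 to 71.4 CPM in B6 DP and 64.3 to 66.6 in BALB DP, the 6 myeloid markers to 7.20 to 14.6 and 5.04 to 7.52, the 4 B cell markers to 1.88 to 2.74 and 0.387 to 1.40, and the 6 thymic epithelial markers to 0.940 to 1.14 and 1.75 to 2.32. The epithelial factor Foxn1 had 0 counts in all DP libraries. Of the erythroid markers, the haem synthesis gene Alas2 was at 7.30 to 8.14 CPM in B6 DP and 4.26 to 7.17 in BALB DP, the factor Klf1 was at no more than 0.524 in any DP library, and the globin gene Hba-a1 was at 0 in all 8 libraries. The 10 DP markers summed to 20928 and 19982 CPM in B6 DP and 12878 and 13017 in BALB DP libraries. All 10 estimates were below 0 and 5 were called lower by edgeR, against 6.14% of all genes. Among the 5 were Rag1 at −1.08 ± 0.077, Ptcra at −0.97 ± 0.22 and Dntt at −0.67 ± 0.095. The same 5 were lower in BALB whole thymocytes. Cd4, Cd8a, Cd8b1, Rag2 and Cd1d1 were not called between the DP groups. Rag1 alone was at 10481 and 9842 CPM in B6 DP and 4800 and 4834 in BALB DP libraries, a large part of the sums. Ptcra was at 21.0 and 18.2 CPM in B6 DP and 21.0 and 18.3 in B6 whole libraries, so it did not mark the sorted cells in B6. The part of these markers in the strain difference of the replication genes was not tested. The histone share was higher in both BALB DP libraries, while Rn45s and depth set the 2 BALB DP libraries apart from each other. With Rn45s and the histone genes left out of the scaling, 26 of the 50 genes were called with a median of 0.50. With all libraries thinned to the smallest, 22 were called with a median of 0.48. The shares of all genes called in either direction were 13.1% and 10.5% in these fits. The part of depth, Rn45s and histone share in the strain difference was not tested.

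The strains were compared in whole thymocytes in the same way. None of the 50 genes was called between BALB and B6 by edgeR, against 4.59% of all genes tested, and 2 had an unadjusted p under 0.05, against 14.5% of all genes. limma-voom called 1 of the 50 and DESeq2 called none. Their median log2 fold change was −0.03 against 0.02 for all genes, and single values ran from −0.62 for the polymerase delta subunit Pold2 to 0.37 for the loader subunit Rfc3. Mcm6 had the smallest adjusted p, 0.058 in edgeR, at 287 and 280 CPM in B6 whole and 227 and 204 in BALB whole libraries, −0.39 ± 0.11. Pold2 was at 23.9 and 21.2 CPM in B6 whole and 15.2 and 14.2 in BALB whole libraries, which do not overlap, −0.62 ± 0.21.

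Whether the strain difference itself depended on the population was tested by the interaction, the difference in whole minus that in DP thymocytes. No gene of the 50 passed an adjusted p of 0.05 in edgeR, where only 0.123% of all genes did, and none did in DESeq2 or limma-voom. The estimate was negative for 47 of the 50, with a median of −0.57 against 0.01 for all genes. An unadjusted p under 0.05 was reached by 30 genes, all negative, against 6.07% of all genes in that direction. The lowest adjusted p was 0.13 for Lig1 (−0.79 ± 0.17), followed by Mcm3 with 0.133 (−0.73 ± 0.15). Chaf1a was at −1.12 ± 0.26, Ccne1 at −1.09 ± 0.25, Rfc4 at −1.04 ± 0.35 and Pole at −0.72 ± 0.16. At the other end were E2f1 and E2f2, both at −0.05, and Chaf1b at −0.02. For 10 of the 50 the strains were apart in opposite directions in DP and whole thymocytes, against 5.37% of all genes. Without BALB DP replicate 1 the interaction was called for 4 of the 50 and without BALB DP replicate 2 for 25, all negative, while the share of all genes called was 0.395% and 10.7%.

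The comparison of whole with DP thymocytes within B6 asks how the genes stand in the sorted stage against all thymocytes of the organ. In B6 whole thymocytes 2 of the 50 genes were called higher, against 6.89% of all genes, and none lower, against 3.27%. Pole rose by 0.58 ± 0.12 (edgeR adjusted p = 0.00829). Pola2, the second subunit of polymerase alpha, was at 53.6 and 53.6 CPM in DP and 67.8 and 85.7 in whole libraries and rose by 0.52 ± 0.14 (edgeR adjusted p = 0.0360). The median was 0.14, and 43 of the 50 values were positive against 5731 of 11409 for all genes. Polymerase genes had the highest median of the roles, 0.40. E2f2 went the other way, from 445 and 435 to 322 and 323 CPM, −0.45 ± 0.15, with an adjusted p of 0.0798 in edgeR. Both libraries of whole thymocytes were above both DP libraries for 29 of the 50, against 30.8% of all genes. Without BALB DP replicate 1 the median was 0.15, and without BALB DP replicate 2 it was 0.13. With only the 4 B6 libraries in the fit, 23.7% of all genes were called in either direction. The share by direction was not computed for that fit. The count of the 50 called was 11 there, with 10 higher and 1 lower. It was 0 without B6 DP replicate 1 or B6 whole replicate 1, and 1 without any of B6 DP replicate 2, B6 whole replicate 2 and either BALB whole library.

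Within BALB, 18 of the 50 genes were lower in whole than in DP thymocytes, against 6.59% of all genes, and none was called higher, against 10.6%. Of the 50 estimates 43 were negative and 7 positive, with Orc1 highest at 0.36. The median was −0.33 against 0.00 for all genes, and both whole libraries were below both DP libraries for 37 of the 50, against 25.1% of all genes. This comparison and the strain comparison in DP thymocytes share the BALB DP libraries, so the calls of one are not independent of the other. By role, 6 of 18 licensing and helicase genes, 0 of 9 clamp, loader and single-strand binding genes, 2 of 10 polymerase, primase and strand completion genes, 4 of 5 nucleotide supply genes, 3 of 4 chromatin genes and 3 of 4 G1/S regulators fell.

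**Figure D4:**
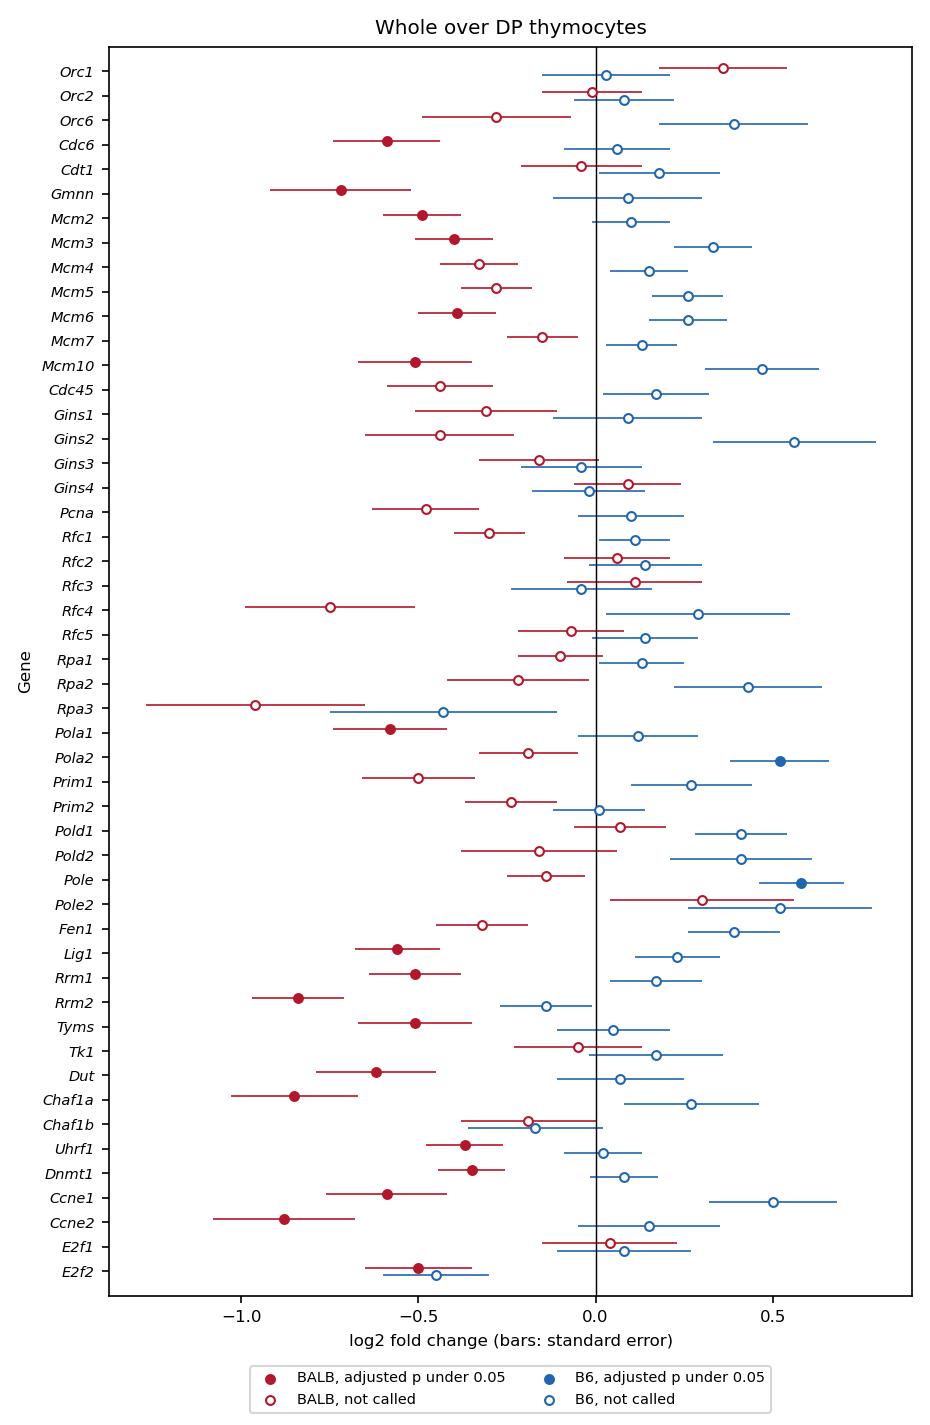
log2 fold change of whole over DP thymocytes for each of the 50 genes in BALB (red) and B6 (blue), with standard errors and with filled points for an adjusted p under 0.05. In BALB 18 points are filled, all to the left of 0, in B6 2 are, both to the right, and E2f2 lies at −0.50 and −0.45.

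Rrm2 had the smallest p within BALB, with libraries at 332 and 249 CPM in DP and 167 and 159 in whole thymocytes, and fell by 0.84 ± 0.13 on the log2 scale (edgeR adjusted p = 0.00131). Lig1 changed by −0.56 ± 0.12, Chaf1a by −0.85 ± 0.18, Mcm2 by −0.49 ± 0.11 and Ccne2 by −0.88 ± 0.20. Rrm1 changed by −0.51 ± 0.13, Cdc6 by −0.59 ± 0.15, Mcm6 by −0.39 ± 0.11 and Dnmt1 by −0.35 ± 0.095. Mcm3 changed by −0.40 ± 0.11, Gmnn by −0.72 ± 0.20 and Pola1 by −0.58 ± 0.16. E2f2 was also called, at −0.50 ± 0.15 (edgeR adjusted p = 0.0376). Its value in B6 was −0.45, whereas the other 17 lay at −0.14, for Rrm2, or above in B6. Pcna, at −0.48 ± 0.15, did not pass (edgeR adjusted p = 0.0512). With 1 library left out at a time, the median ran from −0.36 without BALB whole replicate 1 to −0.28 without BALB DP replicate 1. Fewer of the 50 were called in each of these fits except that without BALB DP replicate 2. All calls were lower in whole thymocytes. With only the 4 BALB libraries in the fit, 4 of the 50 were called, all lower, against 10% of all genes in either direction. The share by direction was not computed for that fit. Calls lost in more than 9 of 19 alternatives were those of Tyms in 15, Ccne1 in 13, Mcm10 in 12, E2f2 and Uhrf1 in 11 and Mcm6 in 10.

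Markers of other cells were higher in whole thymocytes and moved with the population comparisons. Of the 10 DP markers, 7 were called lower in whole than in DP thymocytes in each strain. The shares of all genes called lower were 3.27% in B6 and 6.59% in BALB. The 10 markers summed to 12281 to 12853 CPM in B6 whole and 8957 to 9559 in BALB whole libraries. The mature thymocyte markers summed to 261 to 299 CPM in B6 whole and 399 to 420 in BALB whole libraries, against 64.3 to 71.4 in DP libraries. The myeloid markers summed to 159 to 206 CPM and the DN and early cycling markers to 194 to 234 in whole libraries. Thymic epithelial markers summed to 18.2 to 29.4 CPM in B6 whole and 70.1 to 76.5 in BALB whole libraries. The B cell markers were at 9.17 to 13.0 and Alas2 at 8.69 to 15.9 CPM in whole libraries. Their part in the population differences of the replication genes was not tested.

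Other genes of replication and of the cell cycle were compared from lists of their own. Of 56 further replication, fork and E2F genes tested, 20 were higher in BALB DP than in B6 DP thymocytes and none lower, with a median of 0.36. The shares among all genes were 6.85% higher and 6.14% lower. Hells, a chromatin remodeller of S phase, rose by 1.07 ± 0.16, the histone chaperone Asf1b by 1.20 ± 0.19 and the checkpoint mediator Clspn by 0.84 ± 0.14. The S-phase cyclin Ccna2 rose by 0.76 ± 0.11, and the repressors E2f7 and E2f8 by 0.91 ± 0.15 and 0.62 ± 0.10. Of 19 mitosis genes tested 17 were higher, against the same 6.85% of all genes, with a median of 0.66. Among them was the proliferation marker Mki67 at 3510 and 3218 CPM in B6 DP and 5473 and 4416 in BALB DP libraries. Values for mitosis genes were therefore as large as those for the replication genes, and the difference between the lists was not tested. In whole thymocytes edgeR called none of either list between the strains, against 4.59% of all genes. An unadjusted p under 0.05 was reached by 5 of 56 and 0 of 19, against 14.5% of all genes.

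**Figure D5:**
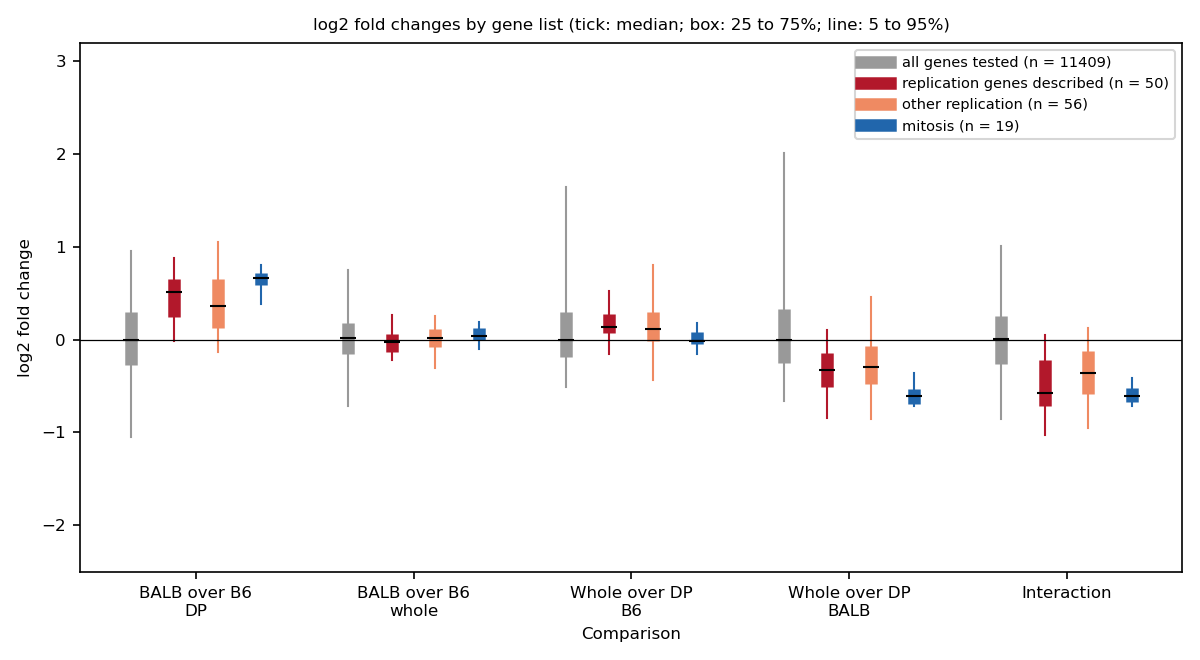
Distribution of log2 fold changes in the 5 comparisons for all genes tested, the 50 replication genes, the other replication genes and the mitosis genes (tick, median; box, 25 to 75%; line, 5 to 95% of genes). In BALB over B6 DP thymocytes the medians are 0.00, 0.51, 0.36 and 0.66, and in whole thymocytes 0.02, −0.03, 0.02 and 0.04.

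Within BALB, 17 of the 56 further genes were lower and 2 higher in whole than in DP thymocytes. Of the 19 mitosis genes 16 were lower and none higher. The shares among all genes were 6.59% lower and 10.6% higher. Within B6, 4 of the 56 rose and 4 fell, against 6.89% and 3.27% of all genes. There edgeR called none of the mitosis genes, with 0 of 19 at an unadjusted p under 0.05, against 23.9% of all genes. In B6 the kinase Dck, which salvages deoxycytidine, fell by 0.46 ± 0.094 on the log2 scale, and Cad, which starts pyrimidine synthesis, rose by 1.14 ± 0.19. In BALB whole thymocytes Cad rose by 1.05 ± 0.19 and Dck changed by −0.42 ± 0.095.

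Calls were also set against the promoter matches. In the DP strain comparison 7 of the 16 genes with a match rose and 15 of the 25 without, with medians of 0.27 and 0.54, and this difference was not tested. Mcm6 and E2f2 hold matches and were not called, while Rrm2, Chaf1a and Ccne1 rose without one in the window.

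Some of these counts may hold reads of a neighbouring gene. Exons of 17 of the 50 genes overlap an exon of another annotated gene, and the library kit does not keep the strand. Among the 27 genes called in the DP strain comparison these were Cdc45, Gins2, Rfc4, Pole, Fen1, Lig1, Chaf1a and Ccne2, and their values are uncertain to that extent. Of the 33 genes with no such overlap 19 were called in the DP strain comparison and 15 in the BALB population comparison.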

How the data were processed

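Per the labels, DP thymocytes were sorted on a FACSAria III and the TruSeq RNA v2 kit was used for libraries. Per the submitters' processing notes, the tools were HISAT2 2.2.0, HTSeq and DESeq2 1.42.1 and the build mm10; for annotation and counting settings, not given in the sources used here. As deposited, the files hold raw read counts per gene symbol, 1 file per library, and HTSeq's lines of reads outside genes were left out; 22.6% to 30.8% of reads were in genes.

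The tests used edgeR 4.0.16 in R 4.3.3, with filterByExpr (11409 genes kept), TMM scaling, 1 coefficient per group over 8 libraries and the quasi-likelihood F test. The fit was tested on simulated data that gave all genes and libraries the same spread beyond counting error. That simulation does not cover the unequal spread of replicates between the groups. Adjusted p-values are Benjamini-Hochberg over all genes tested, with a threshold of 0.05. Standard errors are from the fit. CPM uses TMM-scaled library sizes. Alternatives included limma-voom (limma 3.58.1) and DESeq2 1.42.0. The members and lists were chosen with earlier results of these data known. Genes named were, by rule, those called with the smallest p (up to 12 per comparison), for each role the 2 with the smallest interaction p and the most abundant, and 10 always described; others were named after their values were seen. Positions and exon lengths are from GENCODE M21 (GRCm38). Figures used Python 3.11.15 and matplotlib 3.10.9. No pairing of libraries by replicate number is stated. Between libraries of the same number, deviations from the group means correlated at −0.038 to 0.057. With 2 libraries a group, such values cannot exclude pairing. The summed level of the erythroid markers is not reported here.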

Additional observations from a re-analysis of the deposited data

Results flagged for a closer look

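In 10 of the 50 genes both BALB libraries lay above both B6 libraries in DP thymocytes and below both in whole thymocytes, a pattern met by 5.37% of all genes tested in either order. The strain difference in whole minus that in DP thymocytes was, on the log2 scale, −0.66 for Mcm6, −0.28 for Mcm7, −0.34 for Pold1, −0.72 for Pole, −0.79 for Lig1, −0.68 for Rrm1, −0.70 for Rrm2, −1.12 for Chaf1a, −1.09 for Ccne1 and −1.03 for Ccne2. edgeR's interaction test gave these genes adjusted p of 0.13 for Lig1 to 0.506 for Pold1, so none of them passed.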

How the results depend on the processing

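None of the 47 calls of a gene in a comparison changed direction under any alternative run, and 649 of 893 recomputed calls passed the threshold again. The alternative runs reuse the same libraries and the 47 calls were chosen by the main fit, so the kept direction is not independent support. In order, the main counts of the 50 genes called were 27 (BALB over B6, DP), 0 (BALB over B6, whole), 2 (whole over DP, B6), 18 (whole over DP, BALB) and 0 (interaction). The shares of all genes called were 13.0%, 4.59%, 10.2%, 17.2% and 0.123%. Leaving out each library in turn gave 6 to 31, 0 to 1, 0 to 11, 4 to 24 and 0 to 25; a group left with 1 library is assumed to vary like the others. With a replicate block the counts called were 25, 0, 2, 17 and 0, and no pairing by replicate number is stated. Fits to only the 4 libraries compared had fewer samples to estimate the spread and gave 6, 2, 11 and 4. The shares of all genes called were 5.38%, 9.38%, 23.7% and 10%. The count fell in both comparisons that use the BALB DP libraries and rose in the others. For each gene the main fit shares 1 estimate of the spread over all groups. The spread of replicates was unequal, with a chi-square per degree of freedom of 1.62 in B6 whole and 18.2 in BALB DP thymocytes. Without BALB DP replicate 1 and BALB whole replicate 1 together, the strain comparison in whole thymocytes gave 3, against 8.91% of all genes. Whole over DP gave 12 (B6) or 10 (BALB) in that fit, against 23.9% and 13.7% of all genes. For the interaction 11 genes passed there, against 1.19% of all genes. Without a filter on low counts the strain comparison in whole thymocytes called 1 gene, whole over DP in B6 called 5 and the interaction 15. The shares of all genes called were 4.81%, 9.59% and 2.09%. limma-voom called 1 in whole thymocytes, against 4.56% of all genes, and the DESeq2 Wald test 1 for whole over DP in B6, against 6.56%. For whole over DP in BALB the strict filter gave 7 of the 49 genes it kept, against 11.7% of all genes. Thinning to the smallest library gave 9 there, against 12.7%. The cause of these differences was not tested. Other counts under the scalings, filters and tools were within 1.5 times the main counts. Depth limits single genes of low level such as Pole2, with 20 counts in its lowest library.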

Other observations

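Samhd1, which breaks down deoxynucleotides and so opposes the supply enzymes described above, had 1 and 1 counts in the B6 DP libraries and 1 and 0 in the BALB DP libraries. It had 334 and 287 counts in the B6 whole and 412 and 453 in the BALB whole libraries, or 69.3 to 113 CPM. It was named after its values were seen. Pold4, an accessory polymerase delta subunit, was listed with 0 counts in all 8 libraries.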
